A study of Mus musculus with 96 samples.

Results

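Of the 15895 rows of the expression table, 10 carry the symbol of an inhibitor of DNA binding (Id1, Id2, Id3, Id4), a Notch-responsive repressor (Hes1, Hey1), a Notch receptor (Notch1, Notch2, Notch3) or the Notch ligand Jag1. They were chosen by symbol, with earlier results of these data known. The cells were primary mouse embryonic fibroblasts (MEFs) of the CF-1 strain, connective tissue cells cultured from embryos, with no transgene or deletion named. They were held for 36 h in 0.5% fetal calf serum, a treatment used to arrest division, and serum was then raised to 20%. Poly(A) RNA was sequenced in 2 time courses, called Cycle 1 (63 libraries, the first at -1 h and the last at 38 h) and Cycle 2 (32 libraries, ending at 27 h). Each time has 1 library per Cycle, and 29 times after serum are shared by both. Nothing in the labels says whether the Cycles came from separate embryos or preparations. The p-values measure the spread between these time courses at the same hour, after a constant difference between the Cycles is removed. This spread may be technical. Successive hours of a Cycle enter the fits as if they were independent, and a window averages them. Differences between the Cycles that last for hours are thus not fully counted in the p-values. Where the -1 h and 0 h libraries form 1 baseline, the spread also holds the gap between them.

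Notch receptors are cut after binding a ligand such as Jag1 on a neighbouring cell, and the released intracellular part joins the DNA-binding protein Rbpj and turns on repressors of the Hes and Hey families. Hes1 represses its own gene and is known to oscillate in cultured fibroblasts after serum. Id proteins lack a DNA-binding region and hold E proteins and other basic helix-loop-helix factors away from DNA, and Id1, Id2 and Id3 are classic targets of bone morphogenetic protein (BMP) signalling and of serum. In fibroblasts Id proteins are associated with proliferation.

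The values are normalized read counts, that is reads on a gene scaled by the authors to the same total in every library. Whole reads could be recovered from the values, and a library held 4352235 to 12551892 reads on the listed rows, with a median of 9375098. The 0 h libraries, labelled as taken just before serum, stood apart from the -1 h libraries. Fos, the immediate early gene, had a value of 914 at -1 h and 24883 at 0 h in Cycle 1, and 466 and 15149 in Cycle 2. Its highest value of each Cycle was thus at 0 h. Over all rows, limma called 0.428% higher and 0.0755% lower at 0 h than at -1 h, with the Cycle as a block. A call here means a change of more than 1 on the log2 scale, up or down, at an adjusted p below 0.05. Egr1 was 8.33-fold and 10.4-fold higher at 0 h. Whether the 0 h libraries precede serum was not settled by the files, and "starved" follows the labels for them. Both starved times together form the baseline, as in the study, but the study averages the values themselves. The fits here average log2 values, in which a high 0 h value weighs less. They also count the gap between -1 h and 0 h as spread. The SE at 1 h was 0.48 for Hes1 and 0.43 for Id1, against 0.22 and 0.27 with -1 h alone. For the members, calls that turn on the 0 h libraries are also given against -1 h alone. The starved Cycles also differed in the cyclin gene Ccna2, at 911 at -1 h in Cycle 1 and 2687 in Cycle 2, where its highest value was 2730; its part in the members' differences between Cycles was not tested. All 7 fibroblast markers, among them Col1a2 and Pdgfra, were in the table. Their summed value was 328889 to 482004 in the 4 starved libraries and 149464 to 457382 afterwards, against 180 to 282 and 37.2 to 270 for the 5 endothelial markers. Macrophage and blood markers summed to 207 to 436 and 126 to 619, and epithelial markers to 109 to 275 and 33.1 to 599. Neural progenitor markers, led by Nes, summed to 556 to 921 and 508 to 4610. The 24.5 h library of Cycle 1 lay farthest from the libraries beside it in time, with a median distance of 0.411 (log2) over rows.

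Ranked by value per kb of the longest coding transcript, the members after serum fell in the order Id3, Id1, Id2, Hes1, Id4, Jag1, Notch2, Notch1, Hey1 and Notch3. The medians over 91 libraries ran from 2820 per kb for Id3 to 3.62 per kb for Notch3. Id3 was above Id1 in all 91 libraries, Jag1 was above Notch2 in 91 and Hey1 was above Notch3 in 91. Id2 exceeded Hes1 in 59 and Notch1 exceeded Hey1 in 43 of 91, so these neighbours changed places with time.

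With both starved times as the baseline, 5 of the 10 members rose at 1 or more shared hours (Id3, Id4, Hey1, Notch1 and Jag1) and 1 fell (Notch3). Of all rows 15.5% rose and 37% fell in this test, a moderated F in limma over the 29 shared hours, adjusted by Benjamini-Hochberg, with the same limits for a call. Against -1 h alone 8 members rose, with Id1, Id2 and Hes1 added, and Notch3 fell, while 15% of all rows rose and 36.1% fell. Notch2 passed the F test with both starved times as the baseline (adjusted p = 3.62e-05 from limma), and its largest change was -0.71 (log2) at 25 h. From 1 to 3 h, 4 members rose (Hey1, Jag1, Notch1 and Id3), where 5.3% of all rows rose and 11.8% fell. From 4 to 8 h Jag1 and Hey1 rose and Notch3 fell, against 7.64% and 18.6% of all rows. In the later windows Id3 and Id4 rose and Notch3 fell, against 6.96% rises and 16.6% falls over all rows from 9 to 14 h, 6.8% and 17.1% from 15 to 20 h, and 6.59% and 19% from 21 to 27 h. In each window the median change of the members was above that of all rows, 0.70 against -0.26 (log2) from 1 to 3 h and 0.13 against -0.16 from 21 to 27 h. Rescaling with TMM factors moved the median of all rows from 1 to 3 h from -0.26 to -0.03 and turned 843 rises and 1870 falls into 1158 and 1093. With TMM scaling the F test called 5 member rises and 1 fall, where 20.0% of all rows rose and 30.7% fell. In these bulk samples fewer cells with a transcript and less transcript per cell cannot be told apart.

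**Figure D1:**
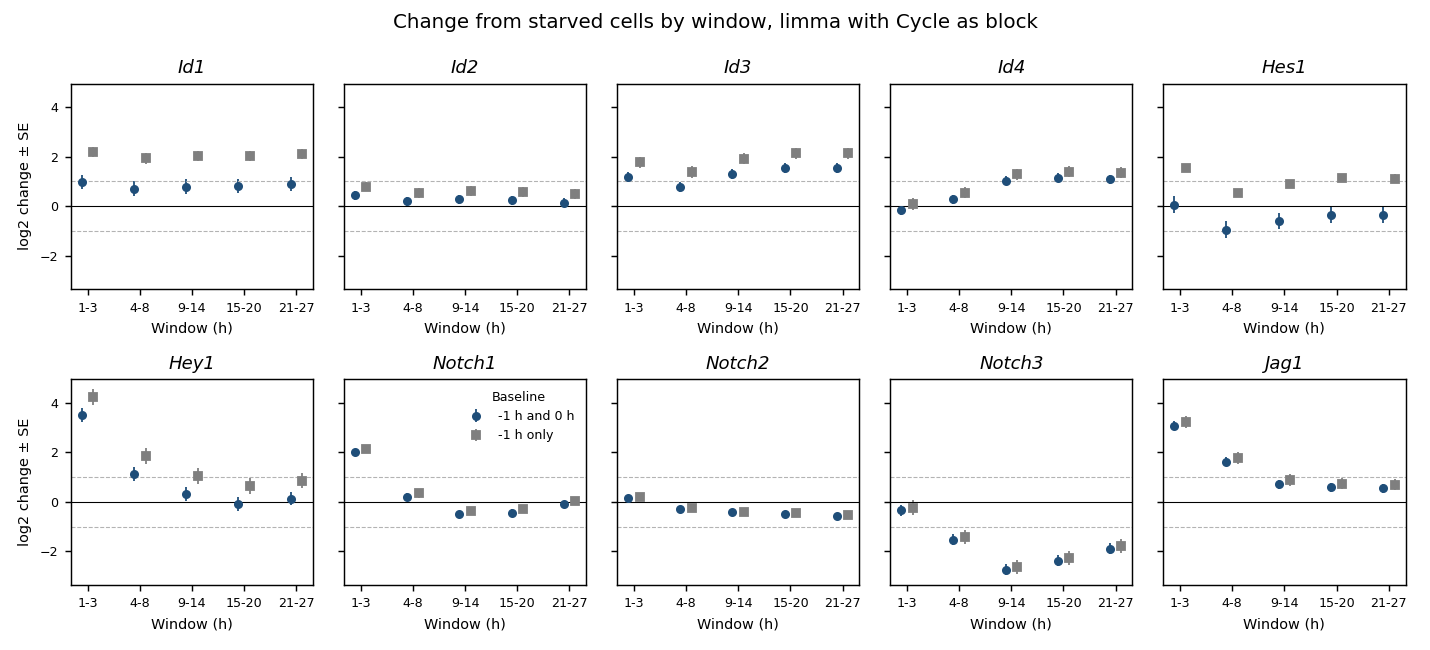
Mean log2 change of each member from starved cells in 5 windows of hours, with its standard error, from limma with the Cycle as a block. Circles use the -1 h and 0 h libraries as the baseline and squares the -1 h libraries alone, and dashed lines mark a change of 1 in either direction. Both baselines lie close together for Jag1, Notch1, Notch2 and Notch3 and far apart for Hes1 and Id1.

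Jag1, a ligand that activates Notch on the next cell, lies on chromosome 2 from 136907192 to 136942380 on the minus strand (NCBIM37, the same assembly as mm9). In Cycle 1 its normalized read count was 810 at -1 h, 981 at 0 h, 2887 at 1 h, 8482 at 1.5 h and then 9040 at 2 h. Cycle 2 gave 485 at -1 h, 619 at 0 h, 958 at 0.5 h, 1810 at 1 h, 8344 at 2 h and then 8670 at 2.5 h. Every library from 1 h to 9 h was above both starved libraries of its Cycle. The rise at 2 h was 3.63 ± 0.28 (log2, SE, n = 2 Cycles, adjusted p = 2.97e-12 from limma), and the mean from 1 to 3 h was 3.07 ± 0.19 (adjusted p = 7.34e-15). At 8 h it was still 1.14 ± 0.28 (adjusted p = 0.00116). From 21 to 27 h the mean value was 868 ± 66.6 (SD, n = 7 libraries) in Cycle 1 and 1201 ± 73.6 (SD, n = 7) in Cycle 2, whose starved values were lower.

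Notch1, a receptor, lies on chromosome 2 from 26313423 to 26372183 on the minus strand and rose in the same hours. Cycle 1 values were 293 at -1 h, 362 at 0 h, 614 at 1 h, 1350 at 1.5 h and then 1549 at 2.5 h. In Cycle 2 they were 200, 239, 431, 1055 and 1418 at the same times. The increase at 2.5 h was 2.47 ± 0.20 (log2, SE, adjusted p = 8.05e-12 from limma), the mean from 1 to 3 h was 2.01 ± 0.14 (adjusted p = 7.61e-14), and at 4 h it was 1.39 ± 0.20. By 5 h it was 0.25 ± 0.20 (adjusted p = 0.30), where Jag1 was at 2953 and 1794, above its starved values; the difference between the genes was not tested. From 9 to 14 h the values were 177 ± 28.8 (SD, n = 6) and 205 ± 30.6 (SD, n = 6), and the change was -0.50 ± 0.13 (log2, adjusted p = 0.00179), short of a 2-fold change.

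The other receptors moved differently. Notch2, on chromosome 3 from 97817461 to 97954290 on the plus strand, started at 911 and 987 in Cycle 1 and 837 and 836 in Cycle 2. It reached 1121 at 1.5 h in Cycle 1 and 1074 at 2.5 h in Cycle 2, and from 21 to 27 h it lay at 587 ± 72.6 and 632 ± 60.3 (SD, n = 7 libraries each). That decline was -0.56 ± 0.10 (log2, adjusted p = 2.39e-05 from limma), under the size set for a call. Notch3, on chromosome 17 from 32257765 to 32303825 on the minus strand, fell steeply. Its values were 165 at -1 h, 211 at 0 h, 159 at 1 h, 86.5 at 4 h, 13.4 at 10 h and then 9.13 at 12 h in Cycle 1. Cycle 2 gave 77.3, 84.1, 88.6, 54.3, 13.4 and 26.8 at those times. The 12 h value of Cycle 1 rests on 5 reads (exact Poisson 95% interval 2.97 to 21.3, counting error only). All 61 libraries of Cycle 1 after serum were below its -1 h library, and 28 of 30 in Cycle 2. The mean change was -1.53 ± 0.23 (log2, adjusted p = 6.59e-07 from limma) from 4 to 8 h and -2.74 ± 0.22 (adjusted p = 2.95e-12) from 9 to 14 h. In the last window it was -1.90 ± 0.22 (adjusted p = 5.29e-09), at 35.7 ± 5.27 and 29.5 ± 3.33 (SD, n = 7 libraries each). Mural cells also express Notch3, and the summed value of their 4 markers, led by Cspg4, was 1333 to 2998 in starved cells and 1003 to 5145 after serum; its part in the fall was not tested.

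**Figure D2:**
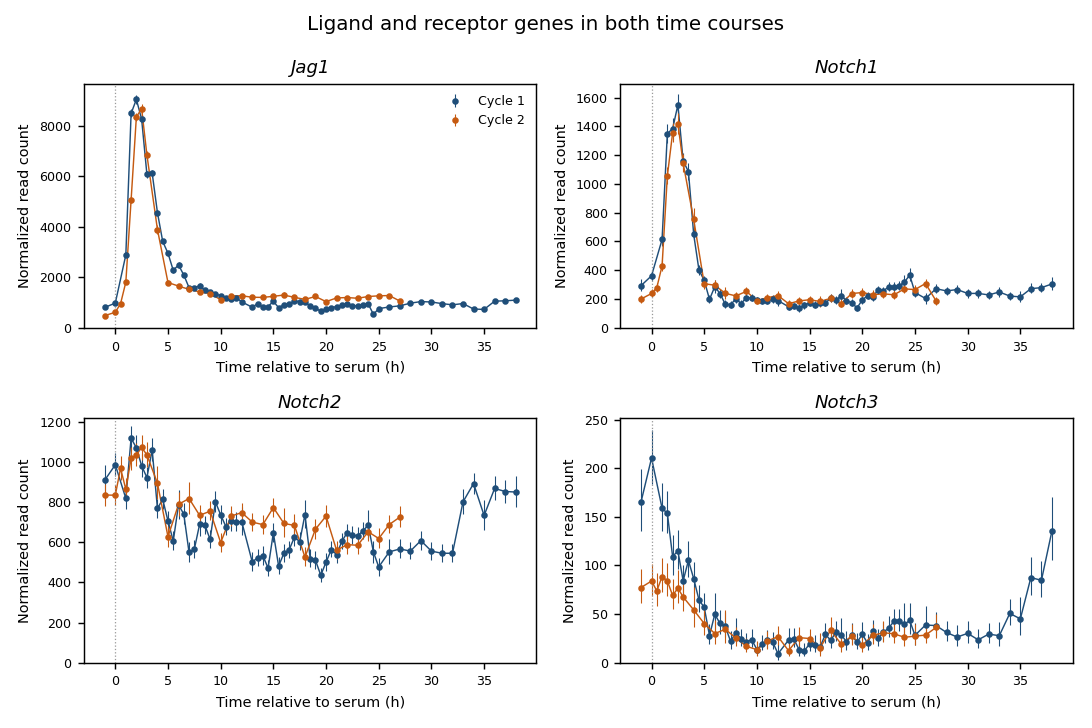
Normalized read count of Jag1, Notch1, Notch2 and Notch3 against the time relative to serum in hours, 1 point per library, Cycle 1 dark blue and Cycle 2 orange. Bars are 95% counting intervals, and the axes start at 0. Jag1 and Notch1 peaked at 2 or 2.5 h in both Cycles, Notch2 changed little and Notch3 lay at 9.13 to 26.8 from 9 to 14 h at the shared hours.

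RefSeq promoters (GRCm38.p6) were given for 7 of the 10 members, and each of these 300-base sequences occurs exactly once in NCBIM37. The 250 bases before the RefSeq start site are given for the ligand and receptor that rose together, for the receptor that fell and for Id4, the Id gene with the latest rise. Capitals mark matches on either strand to 2 motifs, the N-box CACNAG bound by Hes proteins and the BMP-responsive GGCGCC.
Jag1, chr2:136942257-136942506, minus strand: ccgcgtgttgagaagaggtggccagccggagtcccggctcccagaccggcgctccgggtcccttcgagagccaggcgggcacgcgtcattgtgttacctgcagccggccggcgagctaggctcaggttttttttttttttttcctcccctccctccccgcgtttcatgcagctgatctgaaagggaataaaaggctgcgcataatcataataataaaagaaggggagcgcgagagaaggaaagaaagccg
Notch1, chr2:26359343-26359592, minus strand: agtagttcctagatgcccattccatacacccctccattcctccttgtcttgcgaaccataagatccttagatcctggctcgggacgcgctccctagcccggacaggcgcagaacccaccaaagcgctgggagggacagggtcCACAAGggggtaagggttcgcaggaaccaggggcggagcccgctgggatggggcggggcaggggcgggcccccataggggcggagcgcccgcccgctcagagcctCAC
Notch3, chr17:32303836-32304085, minus strand: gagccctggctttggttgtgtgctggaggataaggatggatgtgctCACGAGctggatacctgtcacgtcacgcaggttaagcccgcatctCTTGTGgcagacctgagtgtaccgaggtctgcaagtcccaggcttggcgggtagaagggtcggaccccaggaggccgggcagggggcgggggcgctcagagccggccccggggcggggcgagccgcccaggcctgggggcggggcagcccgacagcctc
Id4, chr13:48356235-48356484, plus strand: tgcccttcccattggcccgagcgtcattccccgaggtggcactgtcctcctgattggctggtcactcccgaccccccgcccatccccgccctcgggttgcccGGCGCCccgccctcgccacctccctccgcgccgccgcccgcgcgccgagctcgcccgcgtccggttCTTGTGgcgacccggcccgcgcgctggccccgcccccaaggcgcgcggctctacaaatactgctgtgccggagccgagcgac
Over 300 bases Notch1 had 3 N-box matches, 2 of which overlap and cross the start site, Notch3 had 2, Id4, Id2 and Notch2 had 1 each, and 42.5% of 32851 promoters had at least 1. GGCGCC was found once in Id4 and once in Id2, and in 11.9% of all promoters. The Rbpj site GTGGGAA (6.38% of all promoters), the E-box CACGTG (7.15%), the cyclic AMP element TGACGTCA (1.79%), the AP-1 site TGANTCA (7.81%) and the Egr site GCGTGGGCG (0.612%) had no match in these 7 windows, which says only that these letters are not there. The Jag1 and Id3 windows held none of the motifs searched. Id1, Hes1 and Hey1 had no entry. For some of these members RefSeq starts differ from those of the annotation behind the gene positions given here. The Notch1 stretch lies inside the annotated gene, downstream of its 5' end, and so belongs to another start site. The same 250 bases of Id3 (135699487 to 135699736) also lie inside its annotated gene. The Jag1 stretch overlaps the first bases of the annotated gene, and the Id4 stretch ends upstream of the annotated Id4 start at 48356796.

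Hey1, a repressor switched on by Notch, lies on chromosome 3 from 8663362 to 8667039 on the minus strand, and rose by an amount within the errors of that of Jag1. In Cycle 1 it went from 30.1 at -1 h and 107 at 0 h to 951 at 1 h, 859 at 2 h, 348 at 3 h and then 183 at 4 h. In Cycle 2 it went from 16.2 and 36.3 to 164 at 1 h, 366 at 2 h, 239 at 3 h and then 105 at 4 h. It peaked at 1 h in Cycle 1 and at 2 h in Cycle 2, and the peak of Cycle 1 was the higher. At 2 h the change was 3.88 ± 0.43 (log2, SE, adjusted p = 5.87e-09 from limma), and over 1 to 3 h it was 3.51 ± 0.29 (adjusted p = 6.73e-12). From 4 to 8 h it was 1.12 ± 0.29 (adjusted p = 0.00127). That call was lost with a pseudocount of 10 (0.92), with edgeR (1.00), without either -1 h library (as low as 0.84) and against 0 h alone (0.39, adjusted p = 0.34 from limma). Against -1 h alone the change of Hey1 was 1.84 ± 0.33 from 4 to 8 h (adjusted p = 2.15e-05 from limma). It was also called from 9 to 14 h (1.05 ± 0.32, adjusted p = 0.00784). From 15 to 20 h the values were 42.0 ± 3.88 and 31.1 ± 10.7 (SD, n = 6 each).

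Hes1, on chromosome 16 from 30064470 to 30067882 on the plus strand, was already high at 0 h. The normalized read count in Cycle 1 was 289 at -1 h, 2790 at 0 h, 3017 at 1 h, 934 at 1.5 h, 1072 at 2.5 h and then 484 at 3 h. In Cycle 2 it was 446 at -1 h, 2800 at 0 h, 3290 at 0.5 h, 2505 at 1 h, 886 at 1.5 h, 777 at 2 h, 1108 at 2.5 h and then 564 at 3 h. In both Cycles it thus dropped between 1 h and 1.5 h and had a smaller second maximum at 2.5 h. Its 95% counting intervals (1014 to 1133 and 1046 to 1173) lie above those at 3 h in both Cycles and above that at 2 h in Cycle 2, but overlap that at 2 h in Cycle 1. Between -1 h and 0 h Hes1 rose 9.67-fold in Cycle 1 and 6.27-fold in Cycle 2. On the log2 scale this rise was 2.96 ± 0.21 (SE, adjusted p = 2.24e-11 from limma), the 23rd of the 68 rows called higher at 0 h. Id1 (2.45 ± 0.27, adjusted p = 1.64e-07) and Id3 (1.22 ± 0.29, adjusted p = 0.0396) were also called, which makes 3 of the 10 members, and Hey1 was at 1.45 ± 0.43 (adjusted p = 0.21). Without the block Id3 was not called (adjusted p = 0.0622). For Jag1, Notch1, Notch2, Notch3, Id2 and Id4 the log2 difference of 0 h from -1 h was 0.06 to 0.69, with adjusted p of 0.989 or more from limma.

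The later level of Hes1 depends on which starved library it is set against. It was lowest at 346 (3.5 h) in Cycle 1 and 459 (4 h) in Cycle 2, and from 21 to 27 h it lay at 842 ± 97.7 and 728 ± 82.8 (SD, n = 7 each). All libraries after serum, 61 and 30, were above the -1 h library of their Cycle, and all but 1 in each Cycle were below the 0 h library. With both starved times as the baseline the change was 0.06 ± 0.33 from 1 to 3 h, -0.95 ± 0.33 from 4 to 8 h (adjusted p = 0.0125 from limma) and -0.36 ± 0.31 from 21 to 27 h, none of them called. As a ratio to the arithmetic mean of the starved values, Hes1 from 4 to 8 h was 0.229 to 0.360 in Cycle 1 and 0.283 to 0.435 in Cycle 2 at the shared hours, more than 2-fold lower in each library. Against -1 h it was 1.54 ± 0.17 from 1 to 3 h (adjusted p = 7.98e-09), 0.53 ± 0.17 from 4 to 8 h and 1.11 ± 0.16 from 21 to 27 h (adjusted p = 1.32e-06). Against 0 h it was -2.43 from 4 to 8 h (adjusted p = 8.26e-14). On recovered reads edgeR called the fall from 4 to 8 h (-1.46, adjusted p = 2.30e-05) with both starved times as the baseline, and DESeq2 did too (-1.45). limma called it without the -1 h library of Cycle 1 (-1.56), and also without the -1 h, the 5 h or the 8 h library of Cycle 2.

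**Figure D3:**
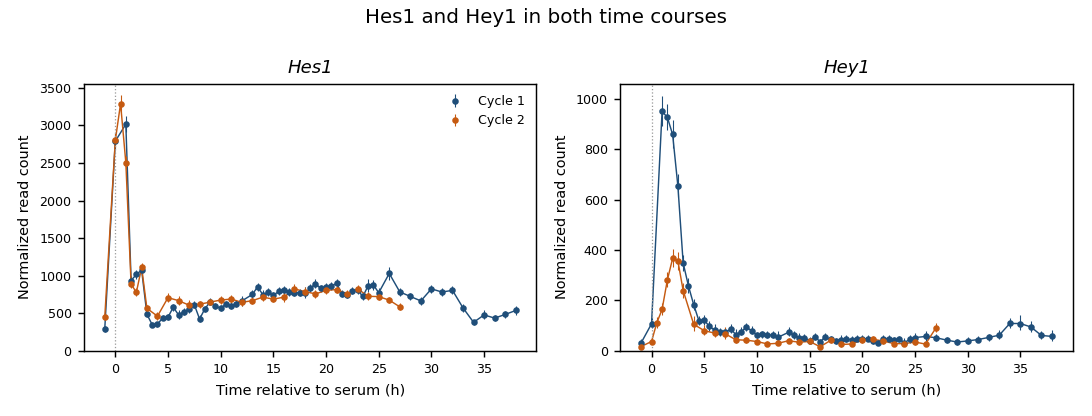
Normalized read count of Hes1 and Hey1 against the time relative to serum in hours, 1 point per library with its 95% counting interval, Cycle 1 dark blue and Cycle 2 orange, axes from 0. Hes1 was near 2800 at 0 h in both Cycles, and Hey1 peaked after serum, at 951 in Cycle 1 and 366 in Cycle 2.

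Of the other genes of the Hes and Hey family and known Notch targets, 6 of a list of 10 were in the table, Hes1 and Hey1 included. Heyl, a relative of Hey1, rose from 87.2 and 108 in the starved libraries to 1180 at 2 h in Cycle 1 and from 42.0 and 42.0 to 845 in Cycle 2 (3.95 ± 0.39 on the log2 scale, adjusted p over hours = 6.85e-16 from limma). Nrarp, a feedback inhibitor of Notch, went from 4.51 and 10.0 to 229 and from 0.954 and 5.77 to 144 (5.10 ± 0.73). Hes6, which counteracts Hes1, fell at 2 h (-1.39 ± 0.23), and Hey2, a gene at a mean value of 18.5, fell at 7 h (-1.39 ± 0.39). Both were named after their values were seen. Of the list 3 rose and 2 fell with the deposited scaling, where 15.5% of all rows rose and 37% fell. With TMM 4 rose and 1 fell, against 20.0% and 30.7% of all rows, and Hey2 was called in the opposite direction. Against -1 h 5 of the list rose, Hes1 and Hey2 among them, and Hes6 fell, where 15% of all rows rose and 36.1% fell.

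**Figure D4:**
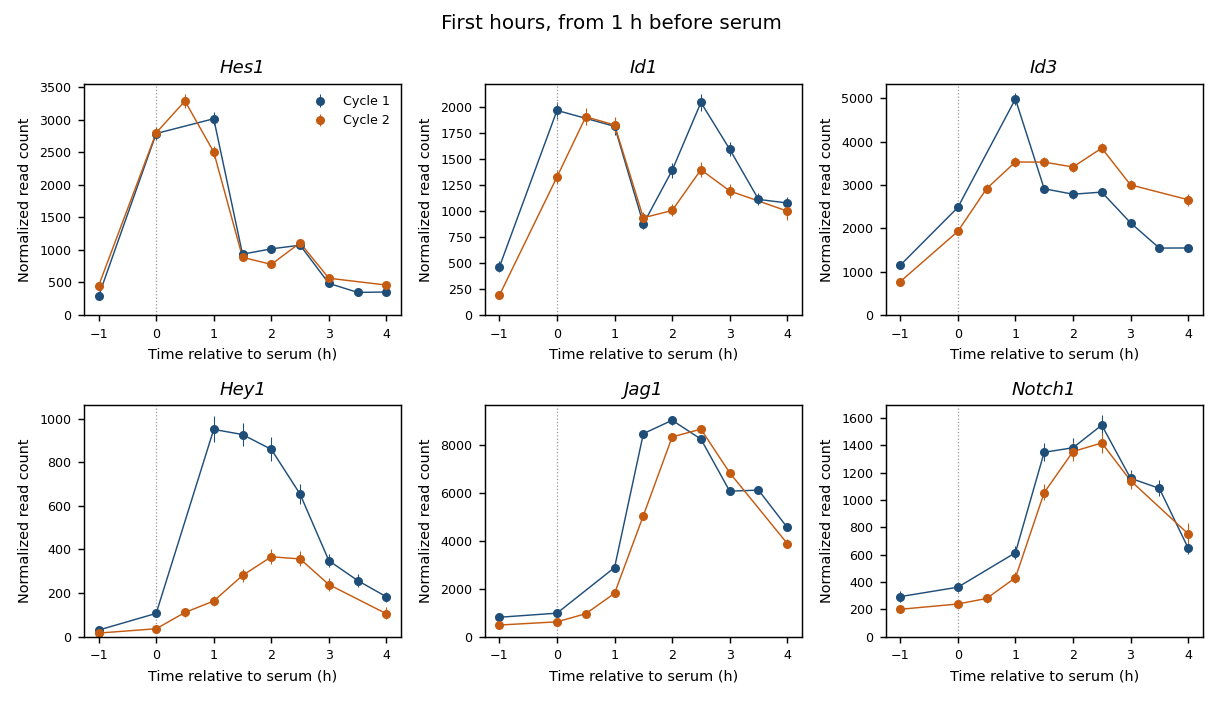
Normalized read count of 6 members from 1 h before to 4 h after serum, 1 point per library with its 95% counting interval, Cycle 1 dark blue and Cycle 2 orange, axes from 0, and a dotted line at serum addition. Hes1 and Id1 were already high at 0 h, dropped at 1.5 h and had a second maximum at 2.5 h, while Jag1 and Notch1 rose after 0 h.

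Id1, on chromosome 2 from 152561987 to 152563146 on the plus strand, had a course like that of Hes1 in the first hours. Cycle 1 gave 463 at -1 h, 1970 at 0 h, 1817 at 1 h, 876 at 1.5 h, 2047 at 2.5 h and then 1078 at 4 h. In Cycle 2 the values were 189, 1329, 1830, 936, 1399 and 1000 at these times, with 1909 at 0.5 h. The drop at 1.5 h and the return at 2.5 h were thus present in both Cycles and wider than the counting intervals (825 to 928 at 1.5 h and 1966 to 2130 at 2.5 h in Cycle 1). The change from both starved times was 0.97 ± 0.30 from 1 to 3 h and 0.89 ± 0.28 from 21 to 27 h (adjusted p = 0.00631 and 0.00695 from limma), just under a log2 change of 1. With TMM it passed from 1 to 3 h (1.21) and from 21 to 27 h (1.01). With the deposited scaling it passed from 1 to 3 h without the 0 h library of either Cycle, and without the 1 h or the 1.5 h library of Cycle 1. In each of the later windows it passed without the 0 h library of either Cycle (1.34 and 1.27 from 21 to 27 h). Against -1 h it was 1.93 to 2.19 in the 5 windows (adjusted p of 5.51e-09 or less).

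Id3, on chromosome 4 from 135699412 to 135701670 on the plus strand, was the most abundant member. It rose from 1147 at -1 h and 2483 at 0 h to 4988 at 1 h in Cycle 1, fell to 1348 at 4.5 h and climbed to 5591 at 19 h. In Cycle 2 it went from 769 and 1930 to 3853 at 2.5 h, fell only to 2661 at 4 h and reached 4822 at 18 h and 4872 at 21 h. The change was 1.17 ± 0.21 from 1 to 3 h (adjusted p = 1.87e-05 from limma), 0.77 ± 0.21 from 4 to 8 h and 1.53 ± 0.21 from 15 to 20 h (adjusted p = 1.20e-07). Without the -1 h library of Cycle 2 the calls at 1 to 3 h and 9 to 14 h were lost (0.84 and 0.98), from 4 to 8 h a call was gained without the 0 h library of Cycle 1 (1.06), and with 0 h alone as the baseline no window was called (0.92 from 15 to 20 h). All 91 libraries after serum were above the -1 h library of their Cycle. Against -1 h alone Id3 was called in each window, at 1.38 from 4 to 8 h (adjusted p = 6.04e-06 from limma) and 1.78 to 2.14 in the others.

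Id4, on chromosome 13 from 48356796 to 48359405 on the plus strand, rose late. In Cycle 1 it was 227 at -1 h, 378 at 0 h and then 511 at 1 h, then fell to 109 at 3 h and returned to 395.5 at 8 h and 513 at 10 h. Cycle 2 had 230, 283 and 312 at the first 3 of these times, 249 at 2.5 h, 616 at 8 h and then 651 at 10 h. The early minimum was below the starved level in Cycle 1 but not below the -1 h library in Cycle 2. From 9 to 14 h the values were 477 ± 19.7 and 651 ± 17.5 (SD, n = 6 each), a change of 1.02 ± 0.18 (adjusted p = 1.14e-05 from limma), and from 15 to 20 h the change was 1.14 ± 0.18 (adjusted p = 2.17e-06). These calls and that from 21 to 27 h (1.08 ± 0.18) were lost without the -1 h library of Cycle 2 (0.87, 0.98 and 0.93), and the first also without the 0 h library of Cycle 2 (0.97). Against 0 h alone none was kept (0.77, 0.88 and 0.82), and the largest change at any hour was 0.99. Against -1 h alone all were kept (1.28, 1.40 and 1.34).

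Id2, on chromosome 12 from 25778666 to 25780957 on the minus strand, differed between the Cycles before serum. Its starved values were 712 and 1136 in Cycle 1 and 288 and 473 in Cycle 2. A maximum at 1 h reached 1505 in Cycle 1 and 837 in Cycle 2. From 9 to 14 h the 2 Cycles were alike in level, at 711 ± 74.9 and 684 ± 51.4 (SD, n = 6 each). Relative to the mean starved value of its own Cycle, Id2 was thus lower in Cycle 1 and higher in Cycle 2 at the shared hours from 4 to 27 h. Against -1 h alone, 25 of the 61 Cycle 1 libraries after serum were above and 36 below, and all 30 of Cycle 2 were above. The change over both Cycles was 0.27 ± 0.18 from 9 to 14 h (adjusted p = 0.19 from limma), and against -1 h the change at 1 h was 1.31 ± 0.26 with an adjusted p over hours of 0.0497.

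**Figure D5:**
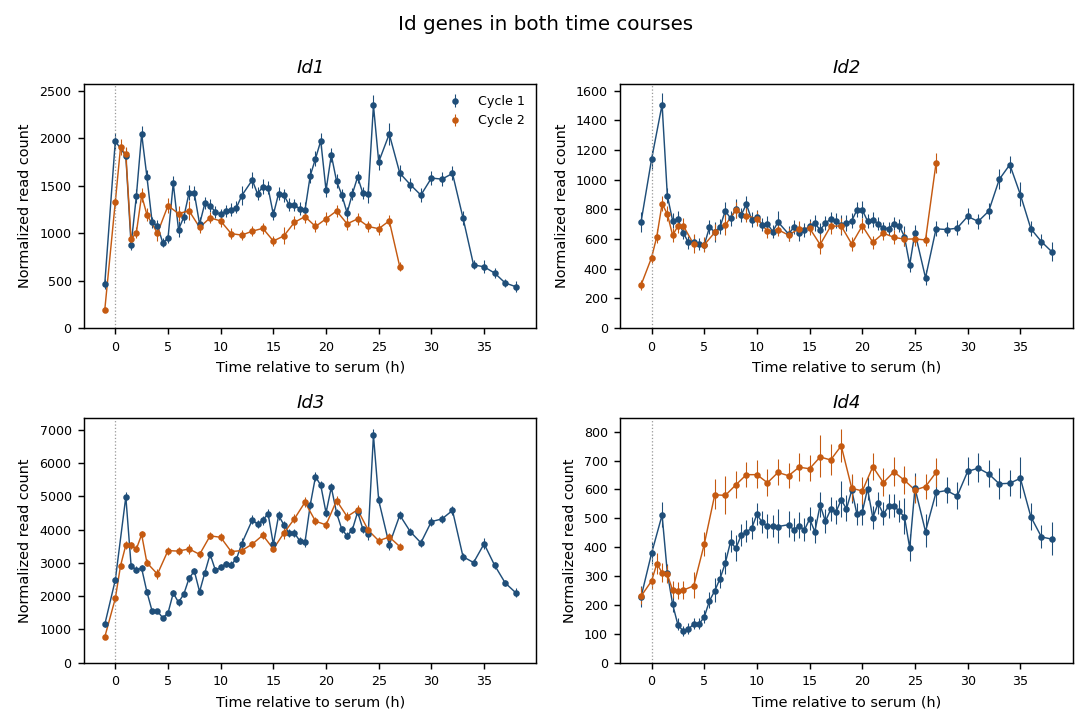
Normalized read count of Id1, Id2, Id3 and Id4 against the time relative to serum in hours, 1 point per library with its 95% counting interval, Cycle 1 dark blue and Cycle 2 orange, axes from 0. Id4 rose from about 4 h in both Cycles, and the high values of Id1 (2348) and Id3 (6833) at 24.5 h come from the library that stood apart.

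After 27 h only Cycle 1 was sampled, and these libraries entered no test. From 32 to 38 h Id1 went from 1630 to 435 and Id3 from 4576 to 2102. Id2 and Hey1 passed through a maximum at 34 h, 1101 and 108, from 787 and 52.5 at 32 h. Notch3 rose from 29.4 at 32 h to 87.6 at 36 h and 136 at 38 h, still below its starved values. In Cycle 2 the last library, at 27 h, had 645 for Id1, 1111 for Id2 and 91.0 for Hey1, against 1130, 593 and 26.0 at 26 h. Over 9112 rows this library was nearest to the 34 h library of Cycle 1 (Pearson r = 0.976, a description across rows) and less near to that at 27 h (r = 0.963). The Cycle 2 libraries at 24, 25 and 26 h were likewise nearest to a later one of Cycle 1, that at 29 h (r = 0.979, 0.981 and 0.978, against 0.978, 0.958 and 0.924 at the same hour).

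Cycle 1 was sampled every 0.5 h up to 25 h, except that no library between 0 h and 1 h or between 12 h and 13 h was used. Cycle 2 was sampled so closely only up to 3 h. Local maxima were counted in the 49 libraries of Cycle 1 from 0 to 25 h with a prominence of at least 0.3 on the log2 scale. Hes1 had 2 (7.5 h and 21 h). Its highest value, 3017 at 1 h, was not counted, because the series starts at 0 h, where Hes1 was already at 2790. The second maximum of Hes1 at 2.5 h also fell short of that prominence. Id1 had 7, Id3 5, Notch1 5, Notch2 6, Jag1 4, Id2 3 and Id4 2. Hey1 had 7 and Notch3 11 at 16 and 5 reads in their lowest libraries. The median over 9112 rows was 3. Without the 24.5 h library Id1 had 6, Id3 4 and Id4 1, and the other members kept their numbers. This count has no replicate.

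Described by likeness over the 63 libraries of Cycle 1 and the 32 of Cycle 2, which share depth and time order, Hey1 and Jag1 had r = 0.857 and 0.839 and Notch1 and Jag1 r = 0.814 and 0.925. Id4 ran against Notch1 (r = -0.667 and -0.759), and with Id3 it had r = 0.751 and 0.601. The row nearest to each member, by the lower r of the 2 Cycles among 9111 rows with a mean of at least 100, was Ets1 for Jag1 (0.948 and 0.975), followed by Top1 and Abtb2. For Notch1 it was Bcl2l11 (0.931 and 0.959), then Smad3 and Pxn, and for Notch2 Kdm5a (0.904 and 0.933), then Pcnx and Sh3pxd2a. Notch3 was nearest to Figf (0.924 and 0.921), Synpo and Nid2, and Hey1 to Heyl (0.924 and 0.915), Tbx3 and Zfp703. Hes1 was nearest to Gadd45b (0.779 and 0.800), Ppp1r15a and Dnajb1. Id4 was nearest to Smad9 (0.927 and 0.933), Mbnl1 and Smad6, while Id1 was nearest to Smad7 (0.711 and 0.762), Sertad1 and Maff. Nup62, Rnd1 and Psmb3 came first for Id3 (0.777 and 0.799 for Nup62), and Sash1, Brd2 and Fbxo33 for Id2, whose highest pair was only 0.414 and 0.459.

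The other genes of both pathways were counted from lists of 97 genes in the table without the 10 members. Of these 17 rose and 42 fell at some shared hour, 17.5% and 43.3%, against 15.5% and 37% of all rows. With TMM scaling 19 rose and 35 fell, 36.1% against 30.7% of all rows. The median change over the windows was -0.37 for these genes and -0.19 for all rows.

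Over all rows 15.5% rose and 37% fell at some shared hour (20.0% and 30.7% with TMM). Of the 6 listed ligands 2 rose and 2 fell, and TMM gave the same numbers. Apart from Jag1, the rise was that of Dlk2, a ligand-like protein that can inhibit Notch, by 2.42 ± 0.30 from 15 to 20 h (log2, adjusted p = 2.38e-08 from limma). Dll4 fell by 3.05 ± 0.38 from 9 to 14 h, but from 4.51 to 13.7 in the starved libraries, and Jag2 (-1.41 from 21 to 27 h) had a mean of only 1.72 and did not pass the test over hours. Dlk1, named after its values were seen, fell by 1.10 ± 0.09 from 21 to 27 h (adjusted p = 9.88e-13), from 15057 and 13550 at -1 h and 0 h to 5211 at 26 h in Cycle 1 and from 4809 and 4894 to 2146 in Cycle 2. Of the 4 receptors Notch4 fell too (-1.20 ± 0.28 from 21 to 27 h), at a mean of 9.93. Of 10 processing genes 1 rose and 3 fell. Furin, the protease that makes the first cut, rose by 1.15 ± 0.08 from 4 to 8 h (adjusted p = 8.02e-14), and Aph1b, a gamma-secretase subunit, fell by 1.58 ± 0.15. Aph1c fell by 1.93 ± 0.42 at a mean of 4.25.

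The counts in this paragraph stand against 15.5% rises and 37% falls over all rows, or 20.0% and 30.7% with TMM. Of 5 genes that add sugars to Notch, 1 rose and 3 fell, or 1 and 1 with TMM. Pofut1, which adds fucose, fell by 1.02 ± 0.07 from 4 to 8 h, and Mfng by 1.25 ± 0.44 at a mean of 1.64. Of 5 genes of ligand endocytosis 2 fell, Neurl1b by 2.56 ± 0.25 and Mib2 by 1.01 ± 0.15. Of 7 genes of the nuclear complex 4 fell, or 3 with TMM, led by the acetyltransferase Kat2b, which fell by 1.84 ± 0.09 from 4 to 8 h (adjusted p = 1.94e-17). Of 10 corepressor genes 4 fell (3 with TMM, where 1 rose), among them Tle2 by 2.85 ± 0.34 and Aes by 1.05 ± 0.12 from 4 to 8 h. Of 9 genes of receptor turnover 3 fell, Dtx3l by 2.27 ± 0.27, Dtx3 by 1.20 ± 0.20 and Dtx4 by 1.12 ± 0.11.

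Of 9 E proteins and tissue-specific helix-loop-helix factors that Id proteins can bind 6 fell (5 with TMM) and 1 rose, where 37% of all rows fell and 15.5% rose. Tcf4, an E protein, fell by 1.37 ± 0.11 from 15 to 20 h (adjusted p = 4.39e-12 from limma), Hand2 by 1.50 ± 0.16 from 4 to 8 h, Tcf21 by 1.85 ± 0.25 and Msc by 2.01 ± 0.39 from 21 to 27 h, the last at a mean of 3.06. The rise was that of Twist2 (1.01 ± 0.14 from 4 to 8 h), which was named after its values were seen.

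In the BMP pathway, known to act upstream of Id genes, 8 of 9 ligand genes fell, also with TMM and against -1 h. Of all rows 37% fell and 15.5% rose (30.7% and 20.0% with TMM). A fall here is the direction at the hour of largest change and does not exclude a rise at other hours. Bmp2 was counted so (-2.27 at 22 h), but its mean over the fitted libraries was 32.2, with starved values of 42.1, 40.1, 15.3 and 10.7. Gdf6 fell by 2.37 ± 0.23 from 4 to 8 h (adjusted p = 9.48e-11 from limma), from 170 and 175 in starved cells to 8.64 at 3 h in Cycle 1 and from 207 and 227 to 31.5 in Cycle 2. Bmp5 fell by 2.57 ± 0.33 from 21 to 27 h, and Bmp3 (-3.87 ± 0.52) and Bmp7 (-2.44 ± 0.33) fell at means of 6.26 and 4.73. Of 12 inhibitors 9 rose and 2 fell, or 9 and 1 with TMM. Nog, which binds BMP ligands, rose by 2.72 ± 0.12 from 21 to 27 h (adjusted p = 1.83e-18) and Fst by 2.50 ± 0.12 from 4 to 8 h, while Chrd fell by 2.42 ± 0.22. Of 7 receptor genes Bmpr1b rose (2.39 ± 0.20 from 4 to 8 h) and 2 fell, Acvr2a by 2.00 ± 0.14 and Bmpr1a by 1.03 ± 0.12. Acvr2b, at a mean of 3.60, had -1.18 ± 0.40 from 1 to 3 h and did not pass the test over hours. Of the 4 Smads that carry the signal Smad9 rose, by 2.01 ± 0.18 from 21 to 27 h (adjusted p = 1.91e-11).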

How the data were processed

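RNA of serum-stimulated MEFs was measured in 2 time courses. Per the labels and the study's methods, libraries came from a stranded poly(A) kit with single-end 50-base reads. The submitters' processing notes name CASAVA, STAR, HOMER and mm9; versions and the treatment of multi-mapped reads are not given in the sources used here. The deposited values are a signal per gene, reads on exons that the authors normalized with HOMER to the same total. Reads were counted on both strands, so those of a gene and of an overlapping antisense gene cannot be told apart. Of 96 value columns 95 were matched to libraries by name and 1 was not used. Between 94.2% and 96.2% of low values were whole multiples of 1 read within 0.1 read, and whole reads recovered so were used for edgeR and DESeq2. Intervals and floors cover counting error only.

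Hours were compared with limma 3.58.1 (R 4.3.3, trend and robust off) on log2(value + 1) over all 15895 rows, which understates changes of low genes. The fit held 62 libraries, the 4 starved ones and 29 shared hours, with the Cycle as a block. Pairing by Cycle comes from the labels. The differences between Cycles at 31 times correlated with a median r of 0.436 (range -0.181 to 0.910, 465 pairs of times). Tests were a moderated F over the hours and the mean change in 5 windows. A rise or fall over the hours is the direction at the hour of largest change. The comparison of 0 h with -1 h was added after the data were seen. Alternatives covered the block, pseudocounts of 0.5 and 10, a minimum mean of 10, TMM and median-of-ratios scaling, edgeR 4.0.16, DESeq2 1.42.0, the baseline, a 1.5-fold threshold and left-out libraries. The limma, edgeR and DESeq2 fits and the count of maxima were first tested on simulated data.

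The members and the pathway and marker lists were chosen with earlier results of these data known. All 10 members are named, up to 4 genes with the largest window change among those called in each list, and the 3 rows most like each member; 1 gene that this rule names is not reported here. Coordinates are those of GENCODE M1 on NCBIM37.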

Additional observations from a re-analysis of the deposited data

Results flagged for a closer look

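Id2 was singled out because every shared-hour library of Cycle 1 lay below the mean of its own 2 starved libraries and every one of Cycle 2 lay above it, in each window from 4 h on. The median ratio to that mean was 0.698 in Cycle 1 and 1.69 in Cycle 2 from 4 to 8 h. From 9 to 14 h the ratios were 0.766 and 1.75, from 15 to 20 h 0.765 and 1.78, and from 21 to 27 h 0.723 and 1.58. Against -1 h alone the Cycle 1 ratios were 0.784 to 1.13 from 4 to 8 h and 0.889 to 1.17 from 9 to 14 h, on both sides of 1. Those of Cycle 2 were 1.94 to 2.75 and 2.17 to 2.63. The difference between the Cycles was not tested.

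The libraries from 28 to 38 h belong to Cycle 1 alone and enter no test. Within them the highest value passed that of both starved libraries of Cycle 1 for 4 members. Id3 reached 4576 at 32 h, Id4 674 at 31 h, Hey1 108 at 34 h and Jag1 1098 at 38 h, against higher starved values of 2483, 378, 107 and 981. The counting interval of Hey1 includes its starved value.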

How the results depend on the processing

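The block by Cycle, which follows the pairing in the labels, left the number of members changed at any hour at 6 when it was dropped. Against -1 h, 5 members changed in each window from 4 h on, 4 rises and 1 fall. Of all 15895 rows, 991 to 1176 rose and 2521 to 2900 fell in these windows. With a 1.5-fold threshold 6 members changed from 4 to 8 h, 4 rises and 2 falls. Of all rows 2155 rose and 4766 fell there. From 9 to 14 h the number at this threshold was 5, 4 rises and 1 fall, against 2241 and 4098 of all rows. At a prominence of 0.5 the local maxima summed to 26. Leaving out 1 library gave 6 to 7 members at any hour, 3 to 5 from 1 to 3 h and 3 to 5 from 4 to 8 h. It gave 1 to 4 from 9 to 14 h, 2 to 4 from 15 to 20 h and 2 to 4 from 21 to 27 h. Single libraries that moved a count by over 1.5 times were 0 h of Cycle 1 (5 members from 4 to 8 h) and -1 h of Cycle 2 (1 member from 9 to 14 h). Fits of 1 Cycle alone called fewer members in each of these tests. They have 1 library per hour, take their spread from the -1 h and 0 h libraries only and assume that a lone sample varies like the others.

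Of 750 other member results, 674 kept direction and side of the threshold, 12 lost a call, 31 gained one and 33 changed sign. Against 0 h alone Id1 was at -0.84 at any hour and -0.26, -0.52, -0.44, -0.42 and -0.34 in the 5 windows, Id2 at -0.71 at any hour and -0.16, -0.077, -0.12 and -0.21 from 4 h on, Hes1 at -2.80 at any hour and -1.41 from 1 to 3 h, and Hey1 at -0.41 from 9 to 14 h and -0.59 from 21 to 27 h. Against -1 h Hes1 was at 0.53, 0.89, 1.12 and 1.11 from 4 h on, Id4 at 0.083 from 1 to 3 h, Hey1 at 0.64 from 15 to 20 h and Notch1 at 0.041 from 21 to 27 h. With TMM Id4 was at 0.063 from 1 to 3 h, Hey1 at 0.0080 from 15 to 20 h and Notch1 at 0.023 from 21 to 27 h, and median-of-ratios scaling gave 0.078 for Id4. edgeR gave -1.78 for Hes1 at any hour, -0.39 for Hes1 and 0.026 for Id4 from 1 to 3 h and -0.028 for Hey1 from 21 to 27 h, where DESeq2, run on windows only, gave -0.35, 0.054 and -0.0024. The cause was not tested.

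With 1 library or a whole Cycle left out, Id2 ranged from -1.41 to 1.59 at any hour and -0.073 to 0.96 from 1 to 3 h. With only 1 library left out these ranges were -0.68 to 1.32 and 0.13 to 0.75. With either left out, Id2 ranged from -0.43 to 0.80 from 4 to 8 h and -0.35 to 0.88 from 9 to 14 h. Later it ranged from -0.33 to 0.79 (15 to 20 h) and -0.56 to 0.83 (21 to 27 h). Id4 ranged from -1.41 (without Cycle 2) to 1.56 at any hour, but from 1.09 to 1.48 with only 1 library left out. From 1 to 3 h it ranged from -0.44 to 0.094. From 4 to 8 h it ranged from -0.32 (without Cycle 2) to 0.88, or 0.13 to 0.51 with only 1 library left out. Hes1 ranged from -1.92 to 1.96 at any hour, -0.54 to 0.57 from 1 to 3 h, -0.97 to 0.15 from 15 to 20 h and -0.97 to 0.14 from 21 to 27 h. Hey1 ranged from -0.43 to 0.31 from 15 to 20 h and -0.35 to 0.61 from 21 to 27 h. Notch1 ranged from -0.17 (without Cycle 2) to 0.57 from 4 to 8 h, or 0.060 to 0.35 with only 1 library left out. From 21 to 27 h Notch1 ranged from -0.36 to 0.16. In that window Jag1 ranged from -0.042 (without Cycle 2) to 1.13, or 0.35 to 0.72 with only 1 library left out. Depth limits Notch3 and Hey1 most, at 5 and 8 reads in their lowest libraries.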
